A study of Ovis aries and Mus musculus with 20 samples.

Results

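Compartments of the genome were compared between 2 visceral fat depots of sheep, mesenteric adipose (MAD) and retroperitoneal adipose (RAD). The libraries were chosen by their labels, as the 3 MAD and the 3 RAD Hi-C libraries of sheep 1, 2 and 3, which are 6 of the 20 libraries of the series. The other samples were 3 Hi-C libraries of sheep greater omentum (GOM), 9 RNA-seq libraries of the sheep and 2 Hi-C libraries of mouse fat. Both depots came from adult females of the breed Small-tail Han sheep, labelled 2-year-old, so breed, age, sex and animal were shared by the groups. For each library 1 g of tissue was crosslinked and nuclei were taken from the upper layer that holds adipocytes after centrifugation. The maps are therefore averages over the cells of a bulk fraction, in which a change within cells and a change in the share of a cell type cannot be told apart.

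Hi-C joins pieces of DNA that lie close together in the nucleus and counts the joined pairs. Regions of open, gene-rich and mostly active chromatin contact one another more often and form the A compartment, and regions of compact, gene-poor and mostly silent chromatin form the B compartment. Cell types differ in which regions lie in A and which in B, mainly in regions of intermediate state. Mesenteric fat lies along the vessels of the gut, drains into the portal vein and holds lymph nodes and lymphatic vessels. Retroperitoneal fat lies behind the peritoneal cavity around the kidney and does not drain into the portal vein.

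The value deposited for each 20-kb bin and library was the A-B index, which takes the median observed over expected contact of the bin with the A regions on its chromosome and subtracts the median with the B regions. It is above 0 in A and below 0 in B and has no unit. The 132797 bins of the 26 autosomes were averaged into 26560 windows of 100 kb, of which 711 lay on chromosome 14 and 25849 on the other chromosomes. Results are given with and without chromosome 14, which held the largest share of windows called different among the 26 autosomes. Number of contacts per library is not part of the deposited index, and the study's summary of sequencing lists fewer valid contacts in every MAD library than in every RAD library. Depth and depot therefore cannot be told apart here. The depot labels were not checked against marker genes, because the sheep gene identifiers are not paired with names in the sources used here.

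Compartment maps of the depots were close to each other. Across windows, MAD libraries correlated with RAD libraries of the same sheep at r = 0.978 to 0.982 and with those of another sheep at r = 0.971 to 0.976. MAD libraries correlated with one another at r = 0.984 to 0.988 and RAD libraries with one another at r = 0.981 to 0.985. These are descriptions over 26560 windows of the same genome, which are not independent of one another. Of all windows, 11300 (42.5%) were in A in all 6 libraries and 12224 (46.0%) were in B in all 6.

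The index was higher in MAD, in A and in B alike. The mean index over all windows was -0.0311, -0.0124 and -0.0658 in MAD of sheep 1, 2 and 3, against -0.215, -0.319 and -0.284 in RAD. The depots did not overlap, and MAD was higher in each of the 3 sheep, by 0.236 ± 0.063 (SD of the paired differences, n = 3). Without chromosome 14 the difference was 0.245 ± 0.069. The exact permutation test over the 20 divisions of 6 libraries gave p = 0.1, which is the smallest value that 3 against 3 libraries can give. That test does not use the pairing by sheep, and an exact test of 3 paired differences cannot go below p = 0.25.

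The share of windows in A was 48.9, 49.1 and 49.3% in MAD, against 47.5, 46.3 and 48.1% in RAD. Every MAD library lay above every RAD library, by 1.82 ± 0.82 percentage points on average within sheep (SD, n = 3; exact permutation p = 0.1, the smallest possible). To ask whether the difference ran with the compartment, windows were divided by the mean index of the 3 GOM libraries, which belong to neither depot. The 12755 A windows had mean indices of 2.67, 2.59 and 2.75 in MAD, against 2.52, 2.41 and 2.55 in RAD. The 13805 B windows had means of -2.52, -2.42 and -2.67 in MAD, against -2.74, -2.84 and -2.90 in RAD. The groups did not overlap in either class, and the difference within sheep was 0.179 ± 0.027 in A windows and 0.288 ± 0.111 in B windows (SD, n = 3; exact permutation p = 0.1 each).

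Measures of the strength of compartmentalization were closer between the depots. The standard deviation of the index over windows was 3.19, 3.12 and 3.33 in MAD, against 3.20, 3.18 and 3.28 in RAD. The libraries overlapped, and the paired difference of -0.0085 ± 0.0588 was smaller than its spread (exact permutation p = 0.9). The gap between the means of A and B windows was 5.21 ± 0.20 in MAD and 5.32 ± 0.12 in RAD (SD, n = 3 each; exact permutation p = 0.4, without the pairing). Within sheep 1, 2 and 3 MAD minus RAD was -0.0647, -0.230 and -0.0317, so the gap was smaller in MAD in all 3 sheep, by about the spread of these differences (-0.109 ± 0.106, SD). Off chromosome 14 the differences were -0.0503, -0.195 and 0.0105, and the sheep no longer shared a sign.

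**Figure D1:**
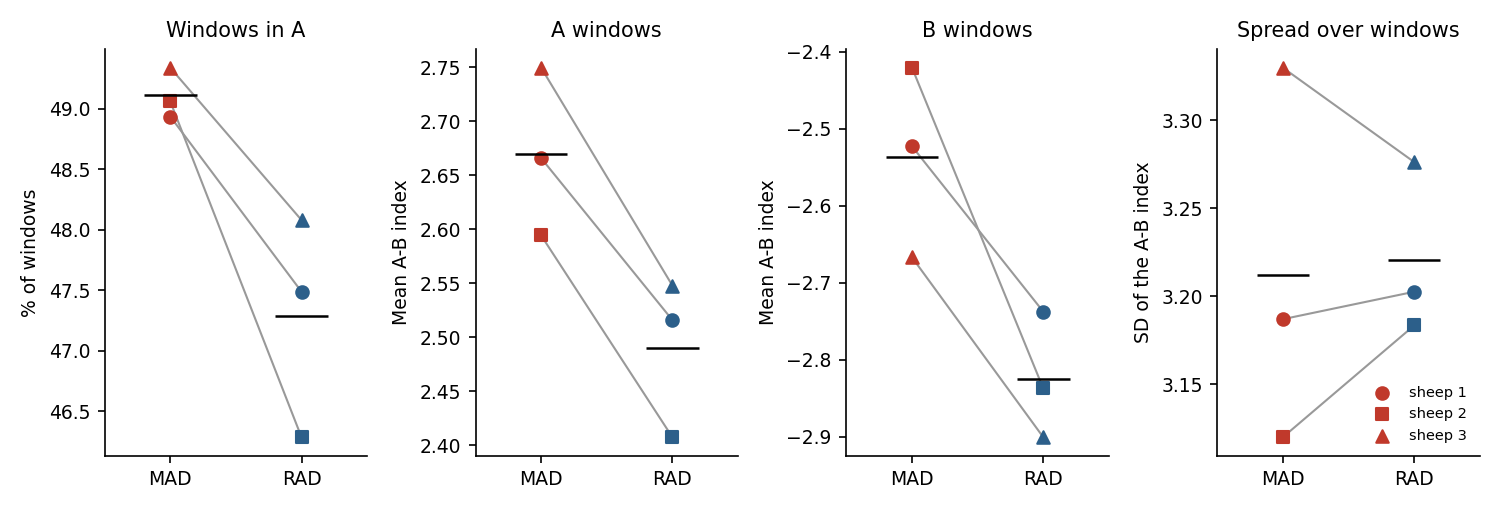
Values per library, with MAD at the left and RAD at the right of each panel: percent of 100-kb windows with an index above 0, mean A-B index (no unit) of windows that are A or B in GOM, and standard deviation of the index over windows. Symbols mark the sheep, grey lines join the depots of a sheep, black bars are means of 3 libraries, and axes do not start at 0; MAD lies above RAD in the first 3 panels and overlaps it in the last.

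The shift was present at every level of the index. By classes of the GOM mean, MAD minus RAD averaged 0.337 over the 3 sheep in the 619 windows under -6, 0.226 in the 5247 windows between -2 and 0, 0.151 in the 5043 windows between 0 and 2, and 0.296 in the 318 windows over 6. All 3 sheep were higher in MAD in each of the 8 classes. The smallest class value of a sheep was 0.101, in sheep 3 between 0 and 2, and the largest was 0.515, in sheep 3 over 6. In the A classes this direction depends on the scale on which libraries are compared. When each library was centred on its own median, the class means lay between -0.0438 and 0.146. All 3 sheep stayed higher in MAD in each class below 0, by 0.0174 to 0.220, and also without chromosome 14. Between 0 and 2 sheep 1, 2 and 3 were lower in MAD (-0.0210, -0.0731 and -0.0371). Without chromosome 14 sheep 3 was higher there (0.0104). Above an index of 2 the sheep no longer shared a sign.

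**Figure D2:**
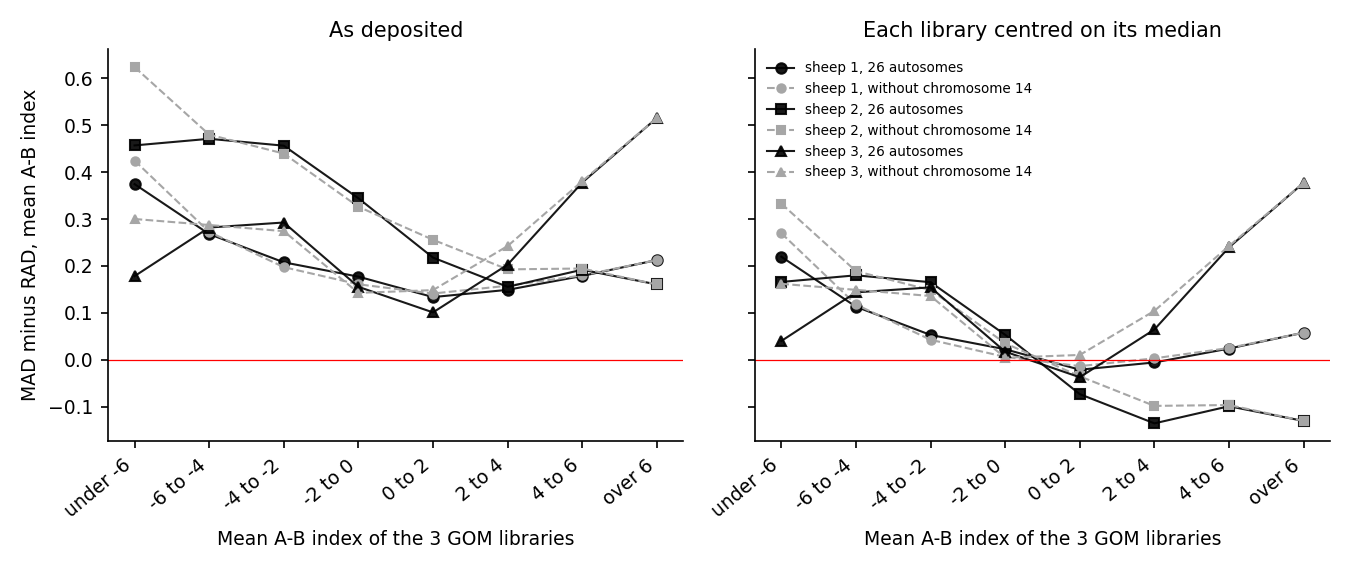
MAD minus RAD (difference of mean A-B index, no unit) in windows grouped by the mean index of the 3 GOM libraries, for each sheep, with all 26 autosomes in black and without chromosome 14 in grey. In the deposited values (left) every point lies above 0, and after each library is centred on its median (right) the points lie on both sides of 0 in the A classes.

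Single windows were tested with limma over all 26560 windows, with the sheep as a block and Benjamini-Hochberg adjustment at 0.05. In all, 3320 windows differed (12.5% of those tested), of which 2800 (10.5%) were higher and 520 (1.96%) lower in MAD. Without chromosome 14 there were 2972 (11.5%), with 2632 (10.2%) higher and 340 (1.32%) lower. The split by direction follows the shift between libraries. After centring on the library median 1549 windows were higher and 983 lower (9.53% of windows in all), after quantile normalization 1650 and 1189 (10.7%), and after centring and scaling of each chromosome 1925 and 1268 (12.0%). Of the 3320 windows, 2069, 2162 and 2271 were called again under these 3 scalings, in the same order. The count also changed when single libraries were left out. It was 1235, 1711 and 1713 without MAD of sheep 1, 2 and 3, and 3144, 1564 and 1831 without RAD of these sheep. Without 1 of the GOM libraries it was 3602 to 4383. Fits with fewer MAD or RAD libraries also have fewer replicates, which was not separated from dependence on a library. With only the MAD and RAD libraries in the fit it was 5728 (21.6%), and without the sheep block 2369 (8.92%). At 500 kb 1016 of 5311 windows were called (19.1%). At 20 kb limma called 0 of 132797 bins after adjustment, with an unadjusted p under 0.05 in 22772 (17.1%).

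The medians of called windows lay on opposite sides of 0 in the 2 depots, although most called windows kept their sign, as given below. The median difference was 1.10 in windows called higher in MAD and -1.08 in windows called lower, while the median over all windows was 0.220. Windows called higher had a median index of 0.363 in MAD and -0.957 in RAD, and windows called lower had -0.858 in MAD and 0.537 in RAD. Without chromosome 14 these medians were 0.425 and -0.774 in windows called higher, and -0.929 and 0.181 in windows called lower. The 3 MAD libraries lay above the 3 RAD libraries with no overlap in 2564 of the 2800 windows called higher, against 23.0% of all windows. They lay below with no overlap in 430 of the 520 called lower, against 5.29% of all windows. The windows were called on these same libraries, so this separation follows from the choice and is no further support for the calls.

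The difference between the depots was shared by the 3 animals. The MAD minus RAD difference of 1 sheep correlated across windows with that of another at r = 0.536 (sheep 1 and 2), 0.550 (sheep 1 and 3) and 0.601 (sheep 2 and 3), and at 0.515, 0.534 and 0.515 without chromosome 14. Neighbouring windows are not independent, and off chromosome 14 the mean difference correlated at 0.742 with that of the next window, 0.239 at 1 Mb and 0.0048 at 10 Mb. Windows called higher in MAD with 1 sheep left out were higher in the sheep left out in 96.3% (sheep 1), 99.1% (sheep 2) and 97.6% (sheep 3), where 61.4, 71.1 and 65.5% of all windows were higher. Windows called lower were lower in the sheep left out in 87.0, 96.3 and 96.4%, where 38.6, 28.9 and 34.5% of all windows were not higher. Off chromosome 14 the shares for lower calls were 91.9, 92.4 and 92.8%.

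Most called windows stayed within their compartment. By the sign of the depot means, 1259 of the called windows were A in both depots (1068 higher and 191 lower in MAD) and 1441 were B in both (1242 higher and 199 lower). These were 10.4% of all windows that were A in both and 11.0% of those that were B in both. A further 490 were A in MAD and B in RAD, of 882 such windows (55.6%), and 130 were B in MAD and A in RAD, of 397 (32.7%). Off chromosome 14 these were 406 of 786 and 83 of 341.

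Windows of intermediate state held the largest share of calls. Between GOM indices of -2 and 0, 14.5% of windows were called higher and 2.65% lower in MAD, and between 0 and 2 these shares were 12.2 and 4.10%. Under -6 they were 5.98 and 0%, with 0 of 619 windows called lower, and over 6 they were 7.55 and 0.629%. Lower calls thinned out with distance from the nearest change of sign in GOM, and were 2.82% of windows within 0.1 Mb of it and 0.644% of windows more than 2 Mb away. Calls higher in MAD were 11.2% and 7.82% of these windows. Without chromosome 14 the shares of lower calls were 2.12 and 0.430%.

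The omentum lay nearer to RAD than to MAD in most windows that differed. The GOM mean was nearer to the RAD mean in 2172 (77.6%) of the windows called higher in MAD and in 474 (91.2%) of those called lower, against 62.7% of all windows. Without chromosome 14 these were 2010 (76.4%) and 294 (86.5%), against 62.0%. On chromosome 14 the shares were 96.4 and 100%, against 86.5% of all its windows. The median GOM index was -0.697 in windows called higher, beside 0.363 in MAD and -0.957 in RAD. It was 0.662 in windows called lower, beside -0.858 in MAD and 0.537 in RAD.

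The difference was spread over the chromosomes. The mean index was higher in MAD in all 3 sheep on 24 of the 26 autosomes, in 2 sheep on chromosome 22 and in 1 sheep on chromosome 14, and 25 autosomes had more windows called higher than lower. Called windows were 5.80% of chromosome 24, the lowest share, and 24.0% of chromosome 16, the highest off chromosome 14, with a median of 10.2% over the 25 other autosomes. On chromosome 16 the mean index was 0.532, 0.660 and 0.537 in MAD of sheep 1, 2 and 3, against 0.122, -0.0729 and 0.273 in RAD. MAD lay above RAD in every sheep there, and 176 of its 784 windows were called higher and 12 lower. Under library centring 16.5% of chromosome 16 was called, and under chromosome-wise scaling 23.2%.

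**Figure D3:**
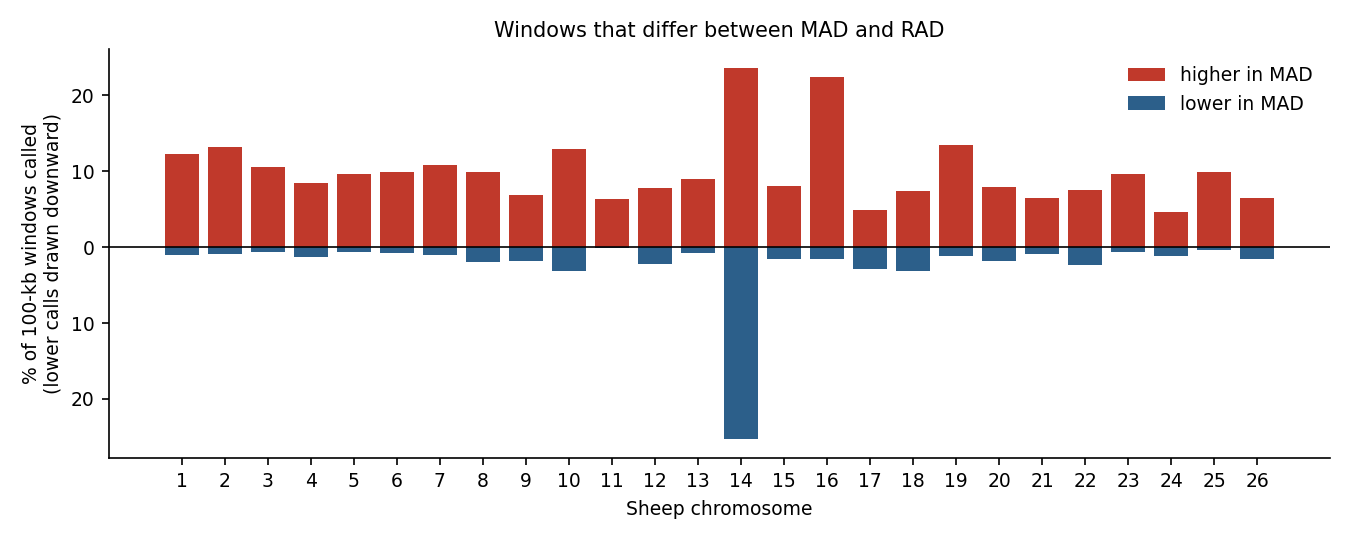
Percent of the 100-kb windows of each sheep autosome called by limma at an adjusted p under 0.05, with windows higher in MAD drawn upward and windows lower in MAD drawn downward. Chromosome 14 has 23.6% higher and 25.3% lower, and chromosome 16 follows with 22.4% and 1.53%.

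On chromosome 14 windows were called in both directions. There 168 windows were called higher and 180 lower in MAD, together 48.9% of its 711 windows. Its mean index was -0.740, -0.980 and -0.860 in MAD of sheep 1, 2 and 3, against -0.938, -0.833 and -0.541 in RAD, so the depots overlapped and only sheep 1 was higher in MAD. The standard deviation of the difference over windows was 1.45 on chromosome 14 and 0.394 to 0.593 on the others. The differences of the sheep correlated across its windows at 0.818, 0.795 and 0.918. The A and B regions to which the index refers had been drawn for each chromosome and library. A chromosome drawn differently in 1 library could therefore change in index across its windows, in either direction, which was not tested. Compartment strength on chromosome 14 was uneven between libraries, with standard deviations of the index of 4.25, 5.00 and 4.89 in MAD and 4.17, 4.45 and 4.40 in RAD. After centring and scaling of each chromosome 44.9% of its windows were called.

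Called windows formed runs along the chromosomes. Windows higher in MAD formed 1126 runs of adjacent windows, of which 615 were single windows, 139 had at least 5 windows and 38 at least 10. Windows lower in MAD formed 249 runs, of which 158 were single and 16 had at least 5 windows. Off chromosome 14 the longest run higher in MAD was 25 windows (2.5 Mb) and the longest lower was 7 windows (0.7 Mb). Coordinates are those of the sheep assembly Oar_rambouillet_v1.0, for which no gene annotation was used, so the genes in these runs are not named.

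The longest run higher in MAD lay at chr19:45900001-48400000. Its mean index was -2.01, -2.57 and -2.27 in MAD of sheep 1, 2 and 3, against -3.72, -3.76 and -3.55 in RAD. The run was mostly in B in both depots, and the depots did not overlap. The difference was 1.39 ± 0.28 (SD, n = 3), with limma adjusted p of 0.000199 to 0.0215 over its windows. Under chromosome-wise scaling only 7 of its 25 windows were called, with a difference of 0.812 when brought back to the scale of the index, and under quantile normalization 22.

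The run at chr3:42000001-44400000 crossed the line between the compartments. Its mean index was 0.73, 0.35 and 0.39 in MAD, against -1.03, -1.15 and -1.31 in RAD. All MAD libraries were in A and all RAD libraries in B on average, while GOM had -0.43, -0.69 and -0.05. The difference was 1.66 ± 0.14 (SD, n = 3), with limma adjusted p of 0.000137 to 0.00576, and 23 or all of its 24 windows were called under each of the scalings.

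The next runs higher in MAD off chromosome 14 lay in B in RAD in all 3 sheep. The run at chr19:3000001-5200000 had 0.00, -0.43 and -0.35 in MAD, against -1.19, -2.28 and -2.15 in RAD, and lay near the boundary of the compartments in MAD. The run at chr18:34100001-36200000 had -2.63, -3.07 and -3.14 in MAD, against -3.89, -4.38 and -4.61 in RAD, and so was less deep in B in MAD. The run at chr13:14200001-16200000 had -0.69, -1.04 and -1.23 in MAD, against -2.51, -2.70 and -2.33 in RAD. In each of these runs every MAD library lay above every RAD library, and the difference was 1.61 ± 0.37, 1.34 ± 0.11 and 1.53 ± 0.37 in this order (SD, n = 3). Fewer of their windows were called under some other settings. Of the 22 windows of this second chromosome 19 run 17 were called after library centring, 18 without the sheep block and 13 under chromosome-wise scaling, where its difference was 1.07 when brought back to the scale of the index. Of the 21 windows of the chromosome 18 run 14 were called after centring and 17 without the block, and of the 20 windows of the chromosome 13 run 18 in either case. Under chromosome-wise scaling all 21 windows of the chromosome 18 run and 19 of the chromosome 13 run were called.

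Runs lower in MAD were short off chromosome 14. At chr1:114800001-115500000 the index was -1.30, -0.60 and -0.97 in MAD, against -0.10, 0.59 and 0.42 in RAD, and GOM had 0.97, 0.58 and 0.30. The run lay in B in MAD and near or above 0 in RAD, with a difference of -1.26 ± 0.12 (SD, n = 3; limma adjusted p of 0.00111 to 0.0457). A second run of chromosome 1, at chr1:118300001-118800000, had -1.19, -0.47 and -0.75 in MAD, against -0.14, 0.88 and 1.12 in RAD. At chr20:47100001-47800000 both depots were in A, with 1.08, 0.88 and 1.49 in MAD, against 1.84, 2.20 and 2.43 in RAD.

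The remaining 2 named runs lower in MAD were of 6 and 5 windows, and a further run of 5 windows, at chr12:80800001-81300000, came after them by its smaller mean difference (-1.14 ± 0.25, SD, n = 3). At chr10:80000001-80600000 the index was -2.10, -1.72 and -2.24 in MAD, against -0.75, -0.77 and -1.02 in RAD, so that both depots were in B. At chr12:82100001-82600000 it was -1.09, -0.35 and -0.85 in MAD, against 0.55, 0.49 and 0.42 in RAD, so that all MAD libraries were in B and all RAD libraries in A. In these 5 named runs lower in MAD off chromosome 14 the depots did not overlap, though the runs were chosen by calls on these libraries. Every one of their windows was called under library centring, quantile normalization and chromosome-wise scaling. Centring and quantile normalization lowered MAD relative to RAD, and so moved these runs further in the called direction. At chr1:114800001-115500000 the difference of -1.26 became -1.45 and -1.47 in this order. Calls under these scalings are therefore no check of runs lower in MAD. Without the sheep block 3 of the 6 windows of the chromosome 10 run and 3 of the 5 windows of the chromosome 12 run were called.

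**Figure D4:**
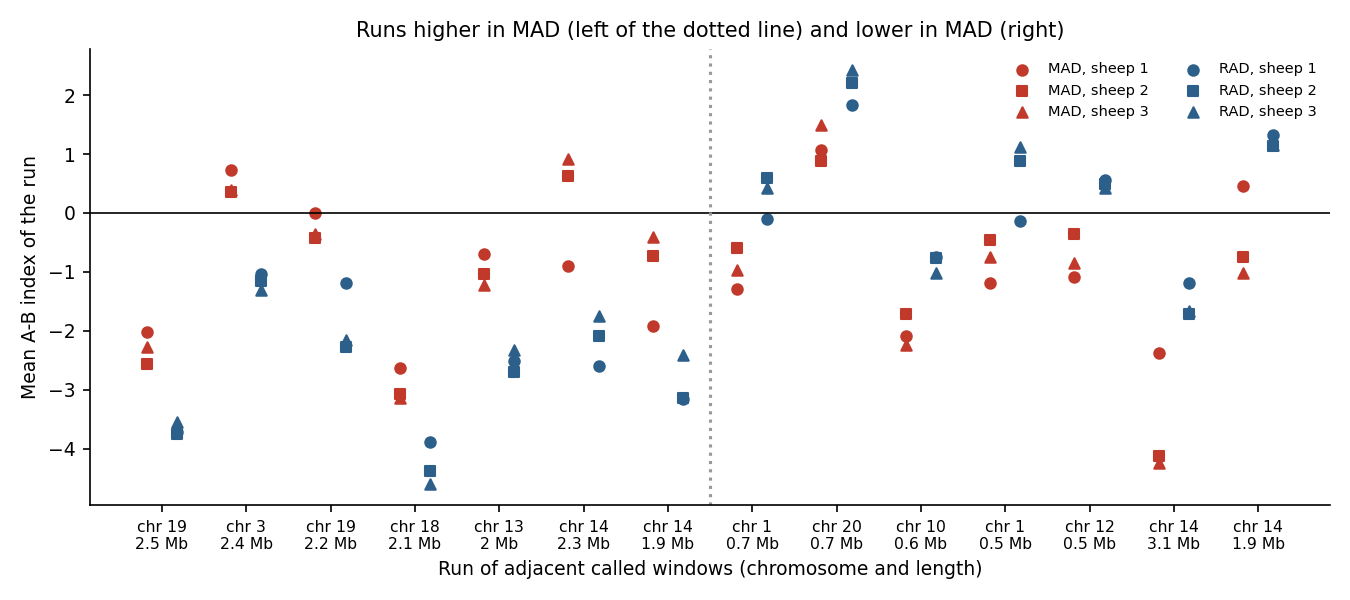
Mean A-B index (no unit) of each library in the longest runs of called windows, with MAD in red left of RAD in blue for each run and a symbol for each sheep. Runs left of the dotted line are higher and runs right of it lower in MAD; the depots do not overlap in any run, and on chromosome 14 MAD of sheep 1 lies nearer to RAD than the other MAD libraries.

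**Figure D5:**
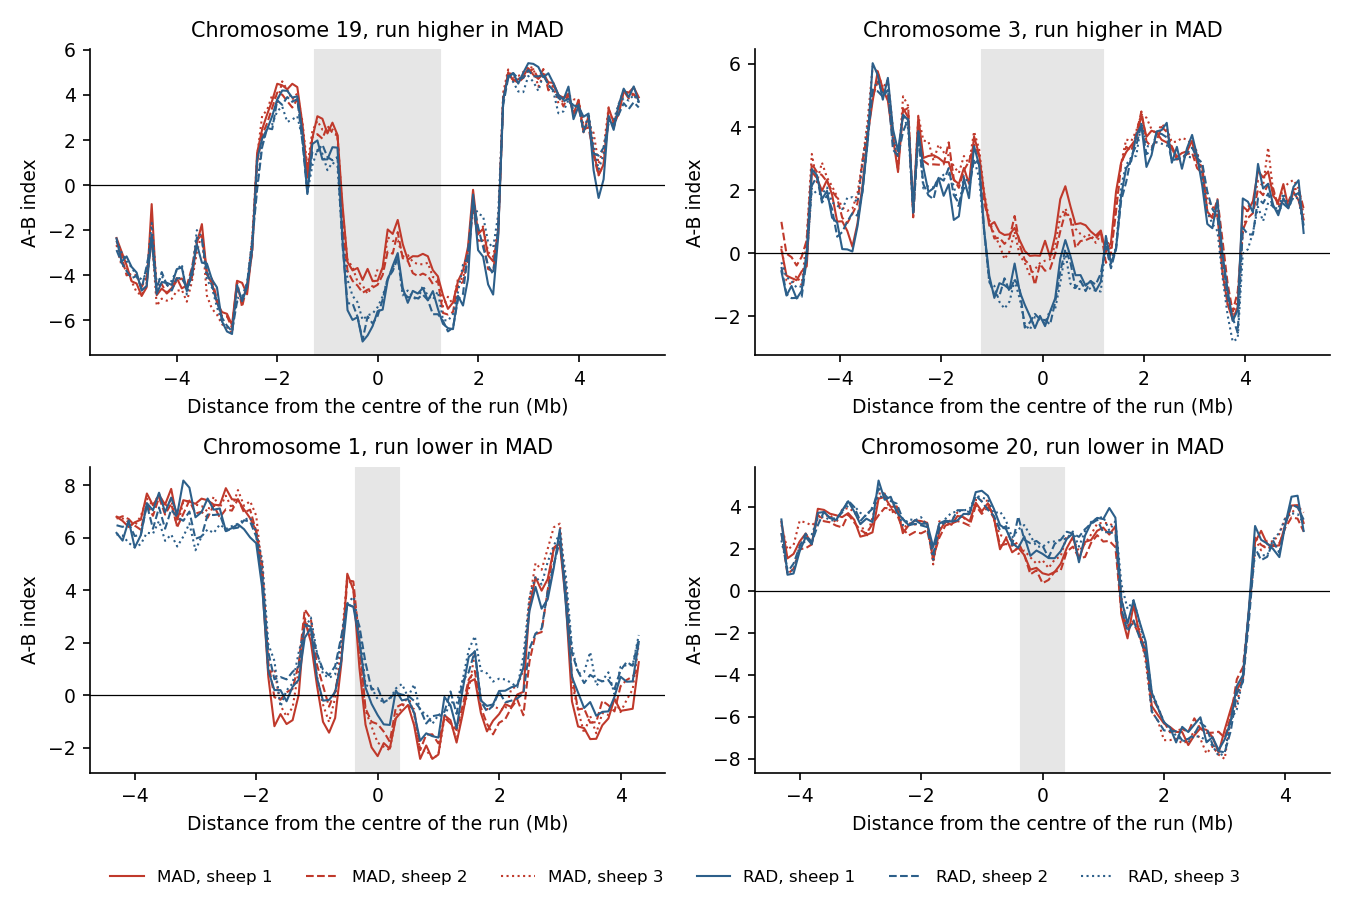
A-B index (no unit) per 100-kb window around the 2 longest runs off chromosome 14 in each direction, by distance from the centre of the run in Mb, for MAD (red) and RAD (blue) of each sheep. Grey marks the run; the lines of the depots separate inside it and run close together over most of the flanks.

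On chromosome 14 the libraries of MAD were uneven. In the run at chr14:20700001-23000000 the index was -0.90, 0.63 and 0.91 in MAD of sheep 1, 2 and 3, against -2.59, -2.08 and -1.74 in RAD. In the run at chr14:49000001-52100000 it was -2.37, -4.12 and -4.24 in MAD, against -1.18, -1.71 and -1.66 in RAD. MAD of sheep 1 was the MAD library nearest to RAD in both runs, one higher and one lower in MAD, and the differences were 2.35 ± 0.57 and -2.06 ± 0.76 (SD, n = 3). The same held in the next longest runs. At chr14:31500001-33400000 the index was -1.92, -0.73 and -0.40 in MAD, against -3.16, -3.13 and -2.41 in RAD. At chr14:53000001-54900000 it was 0.45, -0.75 and -1.01 in MAD, against 1.32, 1.14 and 1.16 in RAD.

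Single called windows reached larger differences. Off chromosome 14 the largest called difference higher in MAD was at chr19:1000001-1100000, with -1.0, -1.87 and 0.12 in MAD, against -3.76, -4.19 and -3.09 in RAD (limma adjusted p = 4.5e-05). The largest lower in MAD was at chr10:75200001-75300000, with -1.65, -1.71 and -0.49 in MAD, against 1.94, 1.09 and 1.25 in RAD (limma adjusted p = 5.57e-05). The depots did not overlap in either window, and the second was in B in all MAD and in A in all RAD libraries. On chromosome 14 the largest among called windows were chr14:67400001-67500000, with -3.43, -0.74 and 1.05 in MAD, against -8.20, -4.04 and -1.94 in RAD, and chr14:55600001-55700000, with -5.23, -7.37 and -7.51 in MAD, against -2.21, -3.73 and -2.38 in RAD. In the first of these the depots overlapped between sheep although MAD was higher in each sheep, and without the sheep block it was not called. Its difference was 4.77, 3.30 and 2.99 in sheep 1, 2 and 3, and the difference of depot means of 3.69 became 1.95 without RAD of sheep 1 and 5.08 without RAD of sheep 3. Windows that were not called reached further, to a difference of -6.18 on chromosome 14.

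Changes of compartment that held in every library were few. In 222 windows (0.836%) the index was above 0 in all 3 MAD and not above 0 in all 3 RAD libraries, and in 66 (0.248%) the reverse held, together 288 windows. Off chromosome 14 these were 208 and 45. The ratio of the directions followed the shift between libraries, with 153 and 129 windows after centring on the library median. The windows lay close to 0. Those in A in MAD had a median index of 0.489 in MAD and -0.589 in RAD, and with the index required to be past 0.2 on both sides 101 windows of either direction were left, past 0.5 only 13. GOM was in B in all 3 libraries in 119 of the 222 windows and in A in all 3 in 16. Of the 66 windows in B in MAD, GOM was in A in all 3 libraries in 33 and in B in all 3 in 0.

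These windows were scattered, and few lay side by side. The 222 windows formed 163 runs on 24 chromosomes, and the 66 formed 58 runs on 20. The longest was chr3:43700001-44400000, inside the chromosome 3 run above, with 0.89, 0.53 and 0.64 in MAD, against -0.78, -0.85 and -1.10 in RAD. The next were chr10:76500001-77000000, with 0.79, 0.56 and 0.37 in MAD, against -1.06, -0.97 and -1.44 in RAD, and chr7:62000001-62400000, with 1.19, 0.57 and 0.68 in MAD, against -0.38, -0.69 and -0.47 in RAD. GOM lay on the side of RAD in the chromosome 10 run (-1.79, -1.30 and -1.67) and on the side of MAD in the chromosome 7 run (0.30, 0.17 and 0.48).

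In the other direction the longest runs were of 3 windows. At chr14:54500001-54800000 the index was -0.85, -2.07 and -2.32 in MAD, against 0.60, 0.50 and 0.61 in RAD, and at chr14:50900001-51200000 it was -0.28, -1.97 and -2.16 in MAD, against 0.94, 0.65 and 0.75 in RAD. Off chromosome 14 it was chr17:18100001-18400000, with -0.13, -0.89 and -0.29 in MAD, against 0.44, 0.54 and 0.46 in RAD. Its limma adjusted p reached from 0.0173 to 0.0698, so that not all of its windows passed the threshold.

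Topologically associating domains (TADs), stretches of the chromosome whose parts contact each other more than their surroundings, were compared as a readout at a smaller scale, from the merged map of each depot. MAD had 4166 TADs and RAD 4187, with a median length of 500.0 kb in both. Of their boundaries, 4243 in MAD and 4273 in RAD, 3913 lay within 40 kb of a boundary of the other depot. Boundaries found only in MAD lay in called windows in 10.9% of cases and those only in RAD in 10.0%, against 9.23 and 9.35% of shared boundaries of MAD and RAD and 12.5% of all windows. Windows called higher in MAD held a MAD boundary, edges of the window included, in 13.5% of cases and windows called lower in 19.8%, against 19.0% of all windows. For RAD boundaries these shares were 13.9, 18.5 and 19.1%. Off chromosome 14 windows called lower held a MAD boundary in 18.5% of cases and a RAD boundary in 15.3%, against 19.0 and 19.1% of all windows there. The maps were merged over sheep, so these values have no replicate error.

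Called windows seldom filled a TAD. Of 3865 RAD TADs with at least 3 windows, 1096 held at least 1 called window. In 91 of these every window was called in 1 direction, 70 higher and 21 lower in MAD, and 7 held windows called in both directions. A window that was not called can still differ, so these counts do not show how far differences reach within a TAD. The counts were not made without chromosome 14.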

How the data were processed

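Hi-C libraries of MAD and RAD of sheep 1, 2 and 3 were compared, with the 3 GOM libraries in the same model. The index deposited by the authors is a score with a sign, 1 value per bin of 20 kb and library. Per the paper's methods, reads had been aligned with BWA in Juicer, matrices KR-normalized, A and B regions drawn from the first principal component of each chromosome at 100 kb and oriented by gene density, and the score computed per library. The methods also describe quantile normalization of contact matrices, for the similarity of maps, and down-sampling of merged maps, for comparisons of species; whether either was applied to the deposited index is not given in the sources used here. TADs of the merged maps were deposited as positions, from an insulation score. Other tables, of RNA-seq, mouse and GOM TADs, were not used here, and 0 columns of values were unmapped.

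Bins were averaged into 100-kb windows with at least 3 of 5 bins, and 10 windows with fewer were left out. MAD minus RAD was tested in R 4.3.3 with limma 3.58.1 on depot and sheep, with a variance trend, over 9 libraries (4 residual degrees of freedom), and p-values were adjusted after Benjamini and Hochberg and called at 0.05. GOM entered no contrast. Exact permutation tests of values per library were two-sided. The labels give each depot of an animal the same number. The sheep was a block because of these labels, and not because of the values that follow. Deviations from depot means correlated at 0.440, 0.414 and 0.428 between MAD and RAD of sheep 1, 2 and 3. Between GOM and either depot they correlated at -0.0312 to 0.222 in the same sheep and at -0.155 to 0.0984 in another sheep. MAD and RAD libraries of the same number thus shared part of their deviations, and GOM libraries of that number hardly did. The main fit applied the same sheep term to GOM. Whether the shared part comes from the animal was not tested. The study states no test of the A-B index between depots. P-values rest on 3 animals and on spread that limma borrowed across windows (15.5 prior degrees of freedom). The fit was tested on simulated data in which the noise of each window was independent of its neighbours. Windows of the data are not, so that test says nothing about runs of calls.

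Regions were named by rule: the 5 longest runs of called windows per direction off chromosome 14 and the 2 longest on it, the largest called window per direction on and off it, and the 3 longest runs per direction of windows whose sign differed in all 3 sheep. Members, windows and rule were chosen with earlier results of these data known. Python 3.11.15, numpy 2.4.6, pandas 2.3.3 and matplotlib 3.10.9 were used for summaries and figures. Alternatives were other scalings, window sizes, thresholds, libraries left out and the model without the block. Depth per library was not analysed here, so no interval from counts is given.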

Additional observations from a re-analysis of the deposited data

How the results depend on the processing

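Without the replicate block, that is without pairing by sheep, 2369 windows were called, of which 2359 were among the 3320. With only the MAD and RAD libraries and the block there were 5728, and 5305 off chromosome 14, where the same libraries without the block gave 1973. At 20 kb 0 bins were called with the block, without it and with only the 6 libraries, on and off chromosome 14, with an unadjusted p under 0.05 in 22772 bins by limma. The count of 1973, the refit without chromosome 14 (3043 windows) and the 20-kb fits without the block and with 6 libraries were added after seeing the data. At 500 kb 1016 of 5311 windows were called (927 off chromosome 14), with the median of bins in place of the mean 1314 (1121), at an adjusted p under 0.01 1376 (1125), and at 0.1 4543 off chromosome 14. Leaving out 1 library or 1 sheep gave 1071 to 4383 windows, and 873 to 4008 off chromosome 14.

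Windows with a change of sign in all 3 sheep, 288, became 101 and 13 with the index past 0.2 and 0.5, 1262 bins at 20 kb and 66 windows at 500 kb. The difference in standard deviation of the index was -0.0395 to 0.019 with 1 sheep left out, and turned positive without sheep 2. Of 264 values of the 24 named regions under alternatives, 0 changed direction. Of these values, 230 moved by less than the SD of the paired differences and 34 by more. Of the 34, 13 had 1 library left out and 9 were under chromosome-wise scaling. Scaled values were multiplied by the mean SD of the libraries before this comparison. The regions were chosen on these same libraries, and the mean difference is the same with and without the block. Where the depots did not overlap, leaving out 1 library could not reverse the direction. Much of this tally was therefore fixed in advance and is no further support for the regions.

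The ratio of higher to lower calls depends on a shift between libraries of 0.195 in the median index. Whether the deposited index was scaled between libraries is not given. Every window called higher in MAD differed by at least 0.745, so removing that shift changes which windows are called and not their direction. Exact tests cannot go below 0.1 over 6 libraries or 0.25 over 3 paired sheep, and depth, lower in MAD, could not be separated from depot.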
